A study of Penaeus monodon with 38 samples.

Results

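Vitellogenin of the black tiger shrimp Penaeus monodon was followed with the 5 oligonucleotide probes that name it on a single-colour array of 2240 probes for 921 targets. The probes were chosen by their description, leaving out those for the vitellogenin receptor and for the vitellogenesis inhibiting hormone, and all 5 belong to 1 target. They were read on all 38 arrays of the study, which asked how gene expression during ovarian maturation compares between wild-caught and captive-reared females. RNA came from ovary, eyestalk and cephalothorax.

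Vitellogenin is the large lipoprotein precursor of yolk. In penaeid shrimp it is made in the hepatopancreas, a digestive and storage gland that lies in the cephalothorax, and in the ovary itself, and the part made outside the ovary reaches the oocytes through the haemolymph and a receptor on their surface. Peptide hormones of the sinus gland in the eyestalk hold vitellogenesis back, which is why removal of 1 eyestalk is used in hatcheries to induce it.

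Wild ovary and wild eyestalk had 2 arrays at each of 6 stages. The preablation stage came from females with both eyestalks, and the others from females with 1 eyestalk removed: at 2 h and 24 h after ablation, and at the vitellogenic, round cortical rod and elongated cortical rod stages, cortical rods being the jelly precursors of the ripening oocyte. Wild ovary RNA of each stage was pooled from 4 and from 5 animals for its 2 arrays. Wild cephalothorax had 1 array at each of these 6 stages. Captive-reared females were sampled at 4 stages (preablation, previtellogenic after ablation, vitellogenic and elongated cortical rod), with 1 array each for ovary, pooled from 3 animals, and eyestalk. Preablation, 2 h, 24 h and the captive previtellogenic arrays are called previtellogenic below, and the vitellogenic and both rod stages vitellogenic. P-values measure the spread between the arrays of a phase, stage differences included. In bulk RNA, fewer cells of a type and less RNA per cell cannot be told apart.

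The probe sequences are given because each is a separate 35-base reading of the same transcript, at the position its name states in the target, with no overlap between them. All are printed as deposited, 5′ to 3′.
vitellogenin 6949-6983: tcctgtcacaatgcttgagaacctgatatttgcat
vitellogenin 7005-7039: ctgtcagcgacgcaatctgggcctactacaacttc
vitellogenin 7245-7279: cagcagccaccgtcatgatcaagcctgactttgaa
vitellogenin 7311-7345: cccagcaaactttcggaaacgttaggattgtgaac
vitellogenin 7519-7553: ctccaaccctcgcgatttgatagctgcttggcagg
Together they span 605 bases, from base 6949 to base 7553 of the target. Their GC content was 40%, 54.3%, 51.4%, 45.7% and 57.1% in that order, with a median of 45.7% over all probes of the array. No other probe of the array carries any of the 5 sequences. The genomic position of the gene was not analysed here.

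Array medians of the foreground mean (FG Mean, the average brightness of a spot in scanner units) ran from 72.3 to 384.1. Of the 190 vitellogenin values, 1 was at 60000 or more, near the scanner ceiling. With no control spots on the array, a non-specific level was set for each array as the 90th percentile of its 24 probes derived from fish genes. By markers, ovary was told apart from eyestalk: all 12 ovarian peritrophin and thrombospondin probes exceeded that level on every ovary array, and 0 to 4 of them on the wild eyestalk arrays. On the cephalothorax arrays 8 to 12 of the 12 exceeded it. The 67 eyestalk marker probes separated the tissues less, with 16 to 35 above the level on wild eyestalk and 7 to 22 on wild ovary arrays. In captive animals their counts were 11 to 22 in eyestalk and 9 to 21 in ovary, so by count they did not mark captive eyestalk. The share of all probes above the level also differed between tissues, which limits such counts. It was 22.4% to 29.9% on captive eyestalk and 30.9% to 46.4% on captive ovary arrays. On wild arrays it was 24.3% to 39.0% in eyestalk, 34.4% to 48.8% in ovary and 43.5% to 50.3% in cephalothorax.

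Vitellogenin signal stood highest in vitellogenic cephalothorax, second in vitellogenic wild ovary, and lower elsewhere. On a log2 scale normalised over all 38 arrays, the mean of the 5 probes was 13.24 ± 0.28 in vitellogenic cephalothorax (SD, n = 3) and 9.90 ± 0.42 in vitellogenic wild ovary (SD, n = 6). The ranges of these groups did not overlap, and the gap between them was 3.34. Captive vitellogenic ovary followed at 8.26 ± 0.28 (SD, n = 2), with no array within the range of vitellogenic wild ovary. Wild previtellogenic ovary was at 8.07 ± 0.84 (SD, n = 6), a group that spread widely and overlapped its neighbours.

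Below these, captive previtellogenic eyestalk was at 7.61 ± 0.28 (SD, n = 2) and captive previtellogenic ovary at 7.57 ± 0.76 (SD, n = 2). Wild eyestalk stood at 7.41 ± 0.24 in the vitellogenic and 7.265 ± 0.36 in the previtellogenic phase (SD, n = 6 each). Captive vitellogenic eyestalk was at 7.32 (both arrays) and previtellogenic cephalothorax lowest, at 7.17 ± 0.12 (SD, n = 3). From captive vitellogenic ovary downwards, each neighbouring pair in this order overlapped in range and was closer than the larger SD of the pair. The cephalothorax thus stood at both the top and the bottom of the order.

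**Figure D1:**
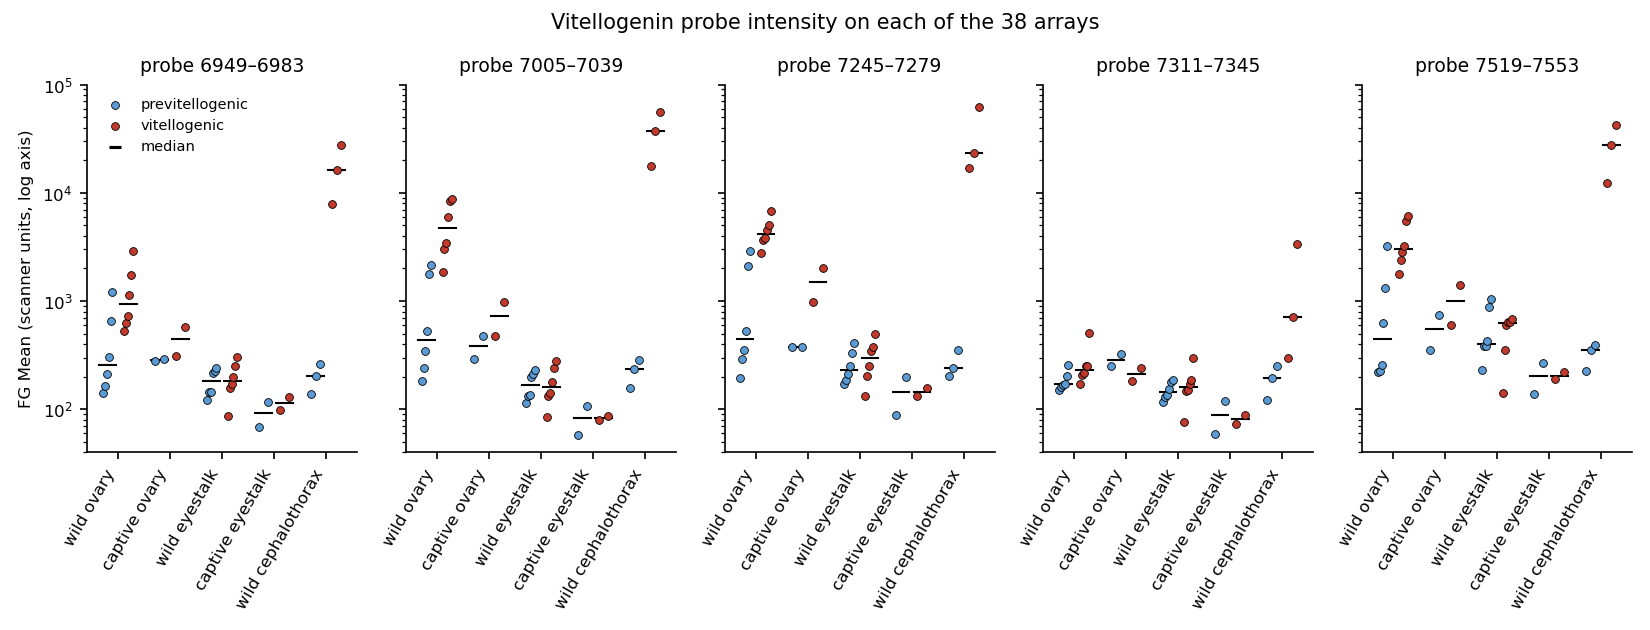
FG Mean of each vitellogenin probe (log axis, scanner units) on each array, by origin, tissue and phase, with 1 panel per probe. Points are arrays and black lines are group medians; in cephalothorax the vitellogenic arrays of 4 probes lie above every other array of the study, and at probe 7311-7345 the vitellogenic cephalothorax arrays read 295 to 3362.

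In wild cephalothorax, vitellogenin rose at all 5 probes from the previtellogenic to the vitellogenic phase. Probe 7005-7039 read 283 at preablation, 157 at 2 h and 234 at 24 h, then 17522 at the vitellogenic, 56179 at the round rod and 37106 at the elongated rod stage (FG Mean). Probe 7245-7279 read 349, 202 and 240 on the same previtellogenic arrays, and 16760, 23356 and 62356 on the vitellogenic arrays. At both probes the 3 early and the 3 late arrays stood far apart, with nothing between.

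Probe 6949-6983 read 260, 139 and 202 before vitellogenesis, and 7846, 16091 and 27415 from the vitellogenic to the elongated rod stage. Probe 7519-7553 read 395, 228 and 356 before, and 12411, 42261 and 27630 after. The vitellogenic array had the lowest raw values of the 3 later arrays at these 4 probes, and also the lowest array median (124.2 against 328.1 and 384.1). After normalisation it was the lowest at none of the 4. Each later stage has 1 array, and their order was not tested. Probe 7311-7345 read 249, 121 and 193 before, and 295, 3362 and 715 after. Its phases did not overlap either, with the raw vitellogenic value of 295 close to the preablation 249, and 8.61 against 6.56 on the normalised log2 scale.

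At 5 of 5 probes every vitellogenic array lay above every previtellogenic one after normalisation, as did 15.6% of all probes. By limma's moderated test over all 2240 probes with Benjamini-Hochberg adjustment, 5 of 5 vitellogenin probes passed at an adjusted p under 0.05, beside 5.49% of all probes that rose in this comparison. Probe 7005-7039 was at least 163-fold higher in the vitellogenic phase (log2 change 7.63 ± 0.28 SE, adjusted p = 0.000143). The bound is used because no previtellogenic array exceeded the non-specific level. By the same bound probe 6949-6983 was at least 62.9-fold higher (6.56 ± 0.18 SE, adjusted p = 6.28e-05). Probe 7311-7345 was at least 4.64-fold higher (3.05 ± 0.66 SE, adjusted p = 0.0363), with an SD of 1.40 among its 3 vitellogenic arrays.

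Probes 7245-7279 and 7519-7553 exceeded the non-specific level on 2 and 3 of the 3 previtellogenic arrays. Their fitted folds were 125 (6.96 ± 0.40 SE, adjusted p = 0.00111) and 71.1 (6.15 ± 0.24 SE, adjusted p = 0.000159). Of all 2240 probes, vitellogenin held the 4 largest changes, with 7311-7345 in place 8. An exact permutation test of a single probe with 3 arrays against 3 cannot go below p = 0.1, and each of the 5 probes reached that value.

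The 6 cephalothorax arrays lie on 2 slides, each holding both phases. The mean change of the 5 probes was 5.98 within the slide with 2 arrays of each phase and 6.25 within the slide with 1 of each. The call of probe 7311-7345 rested on the setting: its adjusted p was 0.0516 with median scaling, 0.0944 without background correction, and 0.0582 to 0.113 without the preablation, 2 h, 24 h or elongated rod array. The other 4 probes passed in each of these fits.

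**Figure D2:**
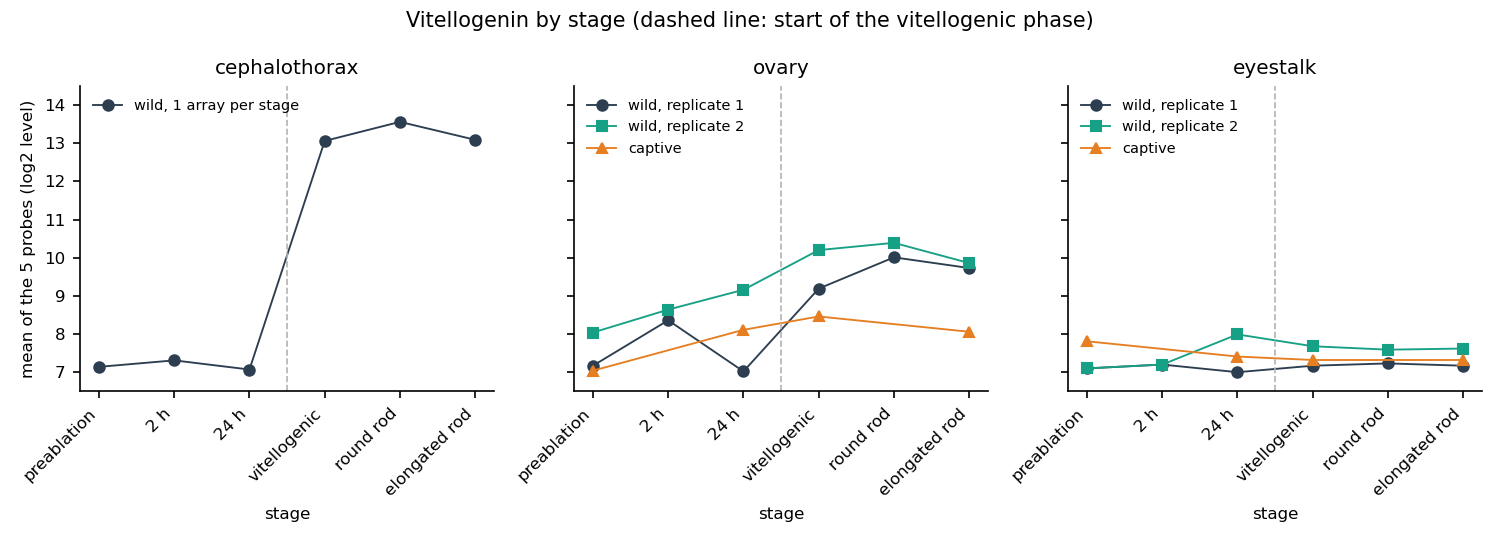
Mean log2 level of the 5 vitellogenin probes by stage in cephalothorax, ovary and eyestalk, normalised over all 38 arrays, with 1 point per array. The captive array labelled previtellogenic after ablation is drawn at the 24 h position; cephalothorax steps from 7.07 at 24 h to 13.06 at the vitellogenic stage, whereas the ovary lines rise by less and eyestalk stays between 7.00 and 7.99.

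Other transcripts moved in the cephalothorax with vitellogenin. Of the 12 ovary marker probes, for peritrophins and thrombospondin of the cortical rods, 4 passed and all 4 fell, beside 6.12% of all probes that fell, the 12 having a median log2 change of -2.17 against 0.05 over all probes. Their summed FG Mean ran from 12486 to 74673 on the previtellogenic and from 5264 to 7978 on the vitellogenic arrays. Vitellogenic cephalothorax therefore had summed ovary marker signal of at most 7978, against 141063 to 472220 in vitellogenic wild ovary, and summed vitellogenin signal of 54834 to 155223, against 8846 to 24870.

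Cathepsin L, a digestive protease made in the hepatopancreas, was the digestive gland marker used, and 0 of its 10 probes passed, beside 5.49% of all probes that rose and 6.12% that fell. Their summed signal was 2061 to 4818 before and 4663 to 8057 after, with 2 to 4 probes above the non-specific level. Previtellogenic wild ovary had sums of 1430 to 4861, with 0 to 1 probes above, and previtellogenic captive ovary 2759 to 3868, with 2 to 3. By its sum the list thus did not mark previtellogenic cephalothorax. Among 7 muscle probes 1 rose, muscle LIM protein (73-106, log2 change 1.33, adjusted p = 0.0438), and the summed signal was 16311 to 34195 before and 27210 to 86399 after. Of 3 probes for haemocyte transglutaminase, which cross-links clotting protein, 1 rose (193-227, 1.09, adjusted p = 0.0207), and the summed signal was 962 to 1794 before and 1208 to 3360 after. The part of these tissue differences in the vitellogenin change was not tested.

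**Figure D3:**
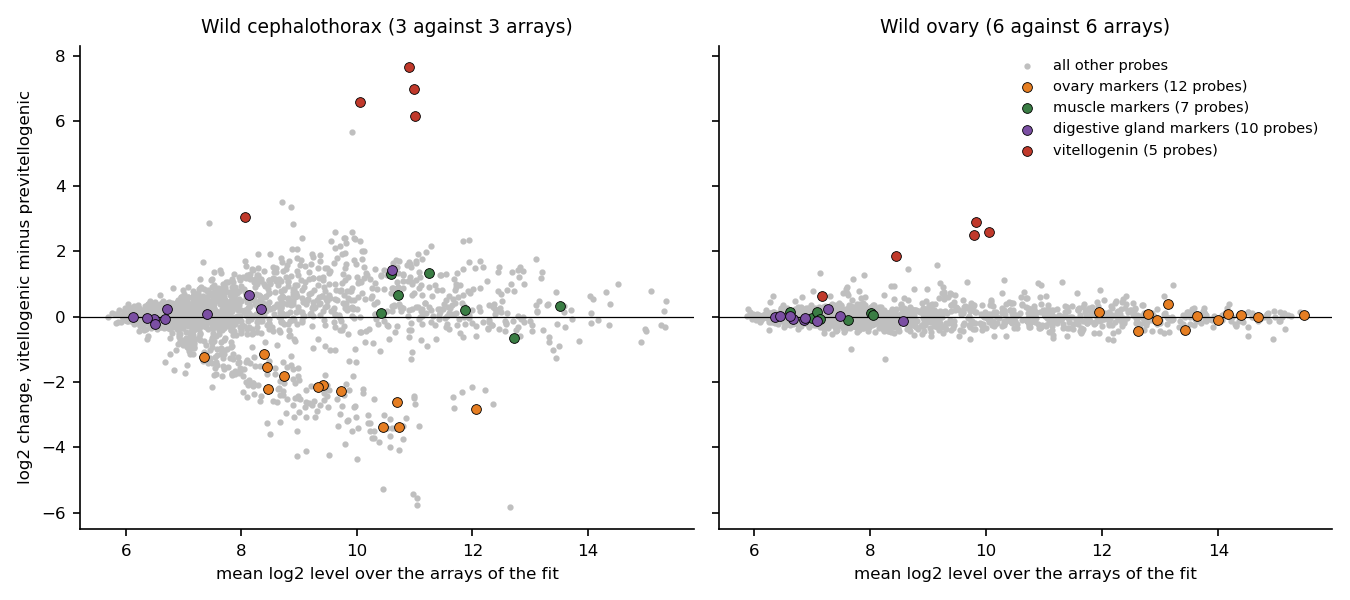
Log2 change with the phase (y) against the mean log2 level (x) for each of the 2240 probes in wild cephalothorax and wild ovary, with vitellogenin and the marker lists in colour. In cephalothorax 4 vitellogenin probes lie above all other probes while the 12 ovary markers lie below 0; in ovary 4 vitellogenin probes lie above all others while the ovary markers lie near 0.

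In wild ovary, all 5 probes had a higher mean in the vitellogenic phase, but none passed over all probes. Probe 7245-7279 read 290 and 530 at preablation, 356 and 2886 at 2 h and 193 and 2085 at 24 h (FG Mean, replicates 1 and 2). It read 3626 and 4562 at the vitellogenic, 3787 and 5041 at the round rod and 2784 and 6792 at the elongated rod stage. In these raw units replicate 2 was the brighter array at 2 h and 24 h, but array brightness differed too, with medians of 158.5 and 343.8 at 2 h. After normalisation over all arrays, the 2 h arrays were at 9.67 and 9.26 and the 24 h arrays at 7.15 and 10.21, so replicate 2 was the higher at 24 h and not at 2 h.

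Probe 7005-7039 read 243 and 532, 344 and 2154, and 183 and 1768 over the previtellogenic stages, then 1869 and 5948, 3021 and 8339, and 3459 and 8850 over the vitellogenic stages. Its normalised levels were 9.61 and 9.09 at 2 h and 7.00 and 9.98 at 24 h, the same order as at 7245-7279. Probe 7519-7553 read 257 and 626, 226 and 3199, and 220 and 1315 before, and 3244 and 2808, 2415 and 5429, and 1763 and 6069 after. In raw units the 2 h replicate 2 array, whose array median of 343.8 was the highest of the wild ovary arrays, lay within the vitellogenic range at this probe.

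Probe 6949-6983 ran from 140 to 1212 (median 258) before and from 532 to 2908 (median 937) after. Probe 7311-7345 ran from 150 to 259 before and from 172 to 510 after, and exceeded the non-specific level on 0 of 6 previtellogenic and 3 of 6 vitellogenic arrays. The other 4 probes exceeded it on 6 of 6 vitellogenic arrays, and on 3 to 5 of 6 previtellogenic ones. Before the vitellogenic phase 4 of the 5 probes exceeded it on each replicate 2 array, and 0 to 3 on the replicate 1 arrays.

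The log2 changes were 2.91 ± 0.61 SE at 7005-7039, 2.61 ± 0.50 at 7245-7279, 2.502 ± 0.48 at 7519-7553, 1.87 ± 0.44 at 6949-6983 and 0.65 ± 0.24 at 7311-7345. Adjusted p by limma lay between 0.0983 and 0.976, so 0 of 5 passed, beside 0.0% of all 2240 probes, with 59 probes of all at an unadjusted p under 0.05. The methods' t-test also passed none, with 75 unadjusted. Unadjusted limma p was under 0.05 for all 5 vitellogenin probes, from 0.000128 to 0.0190. The first 4 of these changes were the 4 largest of all probes, and the largest of any other probe was 1.60.

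After normalisation the phases did not overlap at 2 of 5 probes, 7245-7279 and 7519-7553. Over all probes, 0.179% (4 of 2240) had every vitellogenic array above every previtellogenic one. The two-sided exact permutation p was 0.00216 at these probes, the smallest that 924 splits can give, 0.00433 at 7005-7039, and 0.0108 at both 6949-6983 and 7311-7345. These are unadjusted, among 20 such tests of single vitellogenin probes. Within the 3 slides that hold both phases, the mean change of the 5 probes was 1.92, 1.84 and 1.08, higher in the vitellogenic phase on each.

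Calls in wild ovary changed with 1 array left out and with the set of probes tested. Without the 24 h replicate 2 array, 4 of 5 probes passed: 7245-7279 (adjusted p = 0.0281), 7519-7553 (0.0363), and 6949-6983 and 7005-7039 (0.0438 each), with changes of 2.15 to 3.24. When dim probes were left out, 7245-7279 and 7519-7553 passed (adjusted p = 0.0337 each) at unchanged changes.

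By single stage, the mean of the 5 probes in wild ovary was 7.61 at preablation (7.17 and 8.04), 8.50 at 2 h (8.36 and 8.64) and 8.09 at 24 h (7.02 and 9.165). It was 9.695 at the vitellogenic (9.19 and 10.20), 10.20 at the round rod (10.01 and 10.39) and 9.79 at the elongated rod stage (9.73 and 9.86). Replicate 2 was the higher array at each of the 6 stages. The difference was largest at 24 h, at 2.45 with 5 of 5 probes higher, and 0.20 at the elongated rod stage, where 2 of 5 probes were higher (ovary normalisation).

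No vitellogenin probe passed in the 7 contrasts of single stages (each later stage with preablation, both rod stages with the vitellogenic stage), where limma passed 0.0% of all probes and 4 to 76 had an unadjusted p under 0.05. With 2 arrays a stage, the changes from preablation at 7005-7039 and 7245-7279 were the 2 largest of all probes at 2 h and at the vitellogenic, round rod and elongated rod stages, at 3.40 to 4.26 in the vitellogenic ones. An F test over the 6 stages gave an unadjusted p of 0.0109 at 7519-7553, 0.0208 at 7245-7279, 0.0233 at 7005-7039, 0.0495 at 6949-6983 and 0.239 at 7311-7345. After adjustment none passed, beside 22 of all probes at an unadjusted p under 0.05.

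Summed ovary marker signal on the wild ovary arrays ran from 49038 to 572847 in the previtellogenic and from 141063 to 472220 in the vitellogenic phase. Of these markers, 0 of the 12 probes passed, beside 0.0% of all, with a median log2 change of 0.03 against -0.02 over all probes. These sums are raw: the highest, 572847, was on the 2 h replicate 2 array, the brightest wild ovary array. The 24 h replicate 2 array, with the highest normalised vitellogenin of the previtellogenic arrays, had 197950.

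In captive ovary, vitellogenin had a higher mean in the vitellogenic phase at 4 of 5 probes and none passed, beside 9.46% of all probes that passed in either direction. Probe 7245-7279 read 375 at preablation, 379 in the previtellogenic array after ablation, 2007 at the vitellogenic and 986 at the elongated rod stage (FG Mean). Probe 7005-7039 read 293, 473, 974 and 480, and probe 7519-7553 read 356, 748, 1398 and 603. At all 3 the vitellogenic array was the highest of the 4, and after normalisation the elongated rod array lay between the previtellogenic ones at 7005-7039 and 7519-7553.

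Probe 6949-6983 read 291, 281, 573 and 313. Probe 7311-7345 read 322, 252, 184 and 242, below the non-specific level on each of the 4 arrays. Its lowest value was that of the vitellogenic array, where the other 4 probes had their highest. Log2 changes were 2.02 ± 0.87 SE at 7245-7279 (adjusted p = 0.144), 0.95 ± 1.06 at 7005-7039, 0.90 ± 0.76 at 6949-6983, 0.63 ± 0.84 at 7519-7553 and -0.73 ± 0.42 at 7311-7345. At 7005-7039 and 7519-7553 the standard error was larger than the change. The methods' t-test passed no probe of the array here, with 261 at an unadjusted p under 0.05.

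The vitellogenic ovary of captive females had lower vitellogenin than that of wild females at all 5 probes, and none passed. FG Mean at 7005-7039 was 974 and 480 on the captive vitellogenic and elongated rod arrays, against 1869 to 8850 (median 4703) on the 6 wild arrays. At 7245-7279 it was 2007 and 986 against 2784 to 6792 (median 4175). At 7519-7553 it was 1398 and 603 against 1763 to 6069 (median 3026). Both captive arrays lay below all 6 wild arrays at these 3 probes, in raw units and after normalisation. The wild arrays include 2 of the round rod stage, which has no captive array. In a fit without the wild 2 h and round rod arrays, 0 of all probes passed.

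The log2 differences (captive minus wild) were -3.02 ± 0.86 SE at 7005-7039, -1.99 ± 0.69 at 7519-7553, -1.70 ± 0.62 at 6949-6983, -1.61 ± 0.71 at 7245-7279 and -1.26 ± 0.35 at 7311-7345. Limma's adjusted p lay between 0.126 and 0.304, beside 0.0446% of all probes that passed and 346 of all at an unadjusted p under 0.05. The unadjusted p was under 0.05 at all 5 vitellogenin probes, from 0.00255 to 0.0396, and the methods' t-test passed none of them. After normalisation the captive arrays lay below all wild arrays at 5 of 5 probes, as did 10.2% of all probes. The two-sided exact permutation p was 0.0714 for each probe, the smallest that 28 splits of 2 against 6 can give. All captive ovary arrays lie on a slide of their own, so origin and slide cannot be told apart. A fit with a random slide effect passed no vitellogenin probe.

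Before vitellogenesis the captive and wild groups overlapped at all 5 probes. The log2 differences were -1.06 ± 0.86 SE at 7005-7039, -1.03 ± 0.71 at 7245-7279, -0.74 ± 0.62 at 6949-6983, -0.12 ± 0.69 at 7519-7553 and 0.11 ± 0.35 at 7311-7345. None passed, beside 22.5% of all probes. The change with the phase was smaller in captive than in wild ovary by 1.96 ± 1.22 SE at 7005-7039 and by 0.58 to 1.87 at the other probes on the log2 scale, and this difference passed at 0 of 5 probes, beside 2.14% of all.

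**Figure D4:**
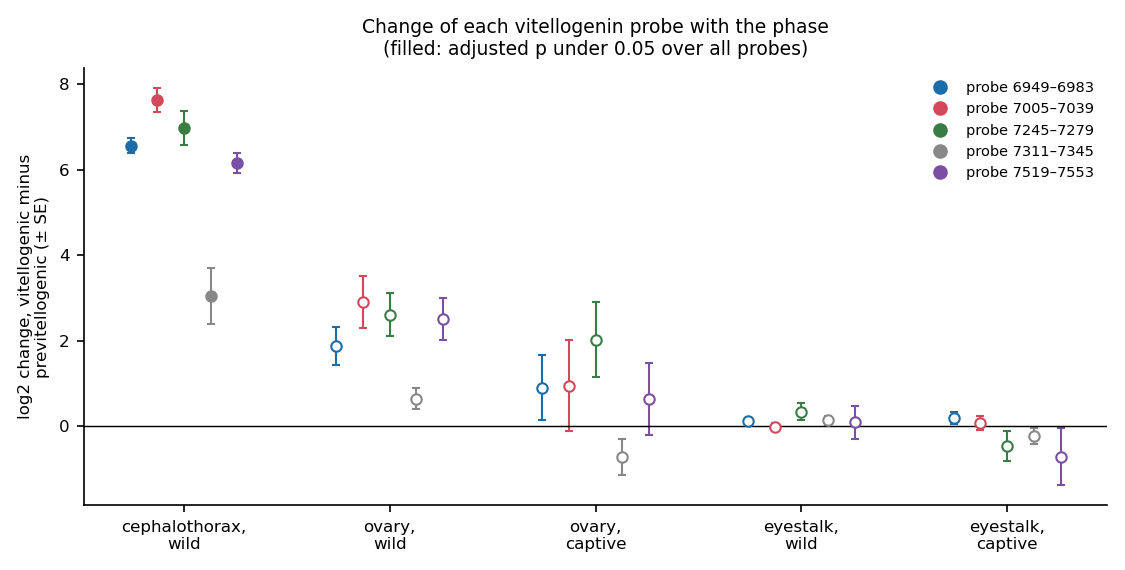
Log2 change of each vitellogenin probe from the previtellogenic to the vitellogenic phase (points, ± SE of the fit) in the 5 tissue and origin groups. Filled points passed at an adjusted p under 0.05 over all 2240 probes: the 5 cephalothorax points are filled, at 3.05 to 7.63, and all others are open.

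In eyestalk, vitellogenin signal lay below the non-specific level at 4 of 5 probes, and no change with the phase passed. FG Mean over the 12 wild eyestalk arrays ran from 84 to 278 at 7005-7039, from 87 to 307 at 6949-6983, from 133 to 493 at 7245-7279 and from 77 to 297 at 7311-7345, with no array above the level. Probe 7519-7553 was the exception, at 141 to 1039, above the level on 4 of 6 arrays in each phase. The level was stricter here, at 138.5 to 795.6 with array medians of 103.0 to 383.0. In wild ovary it was 185.8 to 361.1 with medians of 158.5 to 343.8. Probe 7245-7279 was not above it at a normalised 8.34 (eyestalk, 24 h replicate 2), but was at 7.69 (ovary, preablation replicate 1). A value below the level in eyestalk is thus not always a lower signal than one above it in ovary.

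The changes with the phase in wild eyestalk were 0.33 ± 0.20 SE at 7245-7279 and between -0.02 and 0.14 at the other probes. None passed, beside 0.625% of all probes. In captive eyestalk the changes were -0.71 ± 0.67 SE at 7519-7553 and between -0.45 and 0.18 at the others. None passed there either, beside 0.0% of all probes and 191 of all at an unadjusted p under 0.05. Captive and wild eyestalk differed at 0 of 5 probes in either phase (adjusted p from 0.277 to 0.949), beside 0.714% of all probes in the previtellogenic and 0.0% in the vitellogenic phase (199 unadjusted).

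Set against the other tissues in 1 fit of the 30 wild arrays, vitellogenic ovary was above vitellogenic eyestalk at 5 of 5 probes, beside 22.9% of all probes higher in ovary. Probe 7005-7039 was at least 7.58-fold higher (log2 difference 4.57 ± 0.39 SE, adjusted p = 4.58e-11) and 7245-7279 at least 6.92-fold higher (3.27 ± 0.37, adjusted p = 1.69e-08). Probe 7311-7345 had the smallest difference (0.82 ± 0.29, adjusted p = 0.0202), and its adjusted p was 0.0707 without the round rod replicate 2 array of ovary. Before vitellogenesis ovary was above eyestalk at 3 of 5 probes, beside 26.0% of all. There 6949-6983 passed with a fitted difference of 0.81 ± 0.31 SE (adjusted p = 0.0254). On 0 of 6 eyestalk and 3 of 6 ovary arrays it exceeded the non-specific level. No fold is given as a bound, because the mean in ovary was not above eyestalk once dim eyestalk values were raised to that level. The adjusted p of 6949-6983 was 0.0845 without the 2 h and 0.0957 without the 24 h replicate 2 array of ovary. Probe 7005-7039 was at least 1.44-fold and 7245-7279 at least 1.63-fold higher, while 7519-7553 had a difference of -0.14 ± 0.46 SE (adjusted p = 0.818), which was 0.29 with median scaling.

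In the previtellogenic phase ovary was above cephalothorax at 2 of 5 probes, beside 29.5% of all probes higher in ovary: 7005-7039 was at least 2.40-fold higher (adjusted p = 0.00945) and 7245-7279 was 2.5-fold higher (adjusted p = 0.0185). The arrays of the tissues overlapped at both, and the count was 1 without the 24 h cephalothorax array and ran from 1 to 3 without 1 array. In the vitellogenic phase ovary was below cephalothorax at 5 of 5 probes, beside 20.7% of all lower in ovary. Folds were 18.8 at 6949-6983, 11.6 at 7519-7553, 11 at 7005-7039, 10.6 at 7245-7279 and 3.98 at 7311-7345 (adjusted p from 1.01e-10 to 3.41e-05), and the arrays of the tissues did not overlap.

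The change with the phase was larger in cephalothorax than in ovary at 5 of 5 probes, by an interaction test, beside 4.46% of all probes. Since previtellogenic cephalothorax was below the non-specific level on all arrays at 6949-6983, 7005-7039 and 7311-7345, the sizes there are fitted values with no bound. The change was larger by 5.08 at 6949-6983, 4.99 at 7005-7039, 4.73 at 7245-7279, 4.26 at 7519-7553 and 2.26 at 7311-7345 on the log2 scale (adjusted p from 1.04e-07 to 0.00242). Between ovary and eyestalk the change differed at 1 of 5 probes, 7005-7039, by 2.63 (adjusted p = 0.00881), beside 0.893% of all. With median scaling 3 of 5 passed, and 1 to 3 when 1 array was left out. No slide carries more than 1 tissue. A random slide effect, added after seeing the data, left the numbers of vitellogenin probes past the threshold as they were, apart from ovary against cephalothorax before vitellogenesis, where it was 3.

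Previtellogenic cephalothorax and eyestalk differed at 0 of 5 probes, beside 42.3% of all. In the vitellogenic phase cephalothorax was above eyestalk at 5 of 5, beside 14.2% of all, at least 83.8-fold at 7005-7039 and at least 73.3-fold at 7245-7279. In captive animals, ovary and eyestalk differed at 0 of 5 probes before vitellogenesis, beside 33.1% of all. In the vitellogenic phase ovary was higher at 1 of 5, beside 12.5%: 7245-7279, at least 1.84-fold (1.56 ± 0.27 SE, adjusted p = 0.00759). Captive ovary and eyestalk lie on 1 slide each, so tissue and slide cannot be told apart there.

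The probes varied together in ovary, 7311-7345 less closely than the others. Over the 16 ovary arrays, Pearson's r between the log2 levels of 6949-6983, 7005-7039, 7245-7279 and 7519-7553 lay between 0.88 and 0.94, and between 0.46 and 0.63 with 7311-7345. Over the 16 eyestalk arrays r ran from -0.06 to 0.89. These arrays share slides and stages, and the values are descriptions. The change at 7311-7345 was the smallest of the 5 with the phase in wild cephalothorax and wild ovary, and between ovary and eyestalk in the vitellogenic phase.

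Of the genes of yolk uptake and its control, none passed with the phase in wild ovary, beside 0.0% of all 2240 probes, vitellogenin included. The 3 probes for a vitellogenin receptor, a sequence named after the fruit fly on this array, exceeded the non-specific level on no ovary array of either origin. Their log2 changes in wild ovary were 0.09, -0.09 and 0.04. The list of uptake and lipid genes adds 3 probes for phospholipase C, a membrane lipid hydrolase, which had the smallest p of the list at 289-323 (0.18, adjusted p = 0.976). Of the list 0 of 6 probes passed in wild ovary and 0 of 6 in cephalothorax (beside 5.49% of all probes that rose and 6.12% that fell there), with medians of 0.02 and -0.02 against -0.02 and 0.05 over all probes.

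The same shares of all probes apply to the other lists in cephalothorax, and 0.0% in wild ovary. The 73 probes for eyestalk peptide hormones cover a family with members that hold vitellogenesis back. Of them 0 passed with the phase in wild ovary and 0 in cephalothorax, with medians of 0.01 and 0.04. The one with the smallest p in ovary, Pem-SGP-C2 (260-294), had a log2 change of -0.28. In wild eyestalk, the tissue of the sinus gland, that probe changed by 0.11 (limma adjusted p = 0.959). Counts of the list in eyestalk are not given here. Of 15 farnesoate and ecdysteroid probes none passed in either tissue, and the smallest p in ovary was at the nuclear hormone receptor E75 (2763-2797, 0.14). Of 33 cathepsin probes, lysosomal proteases of which 13 on this array derive from fish, none passed in either tissue. Cathepsin H (531-565), from a fish, had the smallest p in ovary (0.27) and exceeded the non-specific level on 0 wild ovary arrays.

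The cortical rod genes are the 12 peritrophin and thrombospondin probes used above as ovary markers. In wild ovary 0 of the 12 passed, beside 0.0% of all probes. Ovarian peritrophin 2 (644-678) had the smallest p there, with a log2 change of -0.45 (adjusted p = 0.976). In vitellogenic captive against wild ovary, vitellogenin was lower at 5 of 5 probes without passing. The cortical rod list had a median difference of 0.25 there, and 0 of 12 probes passed, beside 0.0446% of all. The receptor probes differed there by -0.21 to 0.08.

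The probe most like vitellogenin over the arrays was 52-87 of the unannotated clone Plate-C-C11-5-SMART, chosen by its correlation with the mean of the 5 probes. Its sequence is shown beside the other probe of the same clone, since the values of the pair differ.
Plate-C-C11-5-SMART 52-87: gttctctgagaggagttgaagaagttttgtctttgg
Plate-C-C11-5-SMART 160-198: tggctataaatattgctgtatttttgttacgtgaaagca
The longest run of bases that either shares with a vitellogenin probe is 5, or 6 after reverse complement. Pearson's r of probe 52-87 was 0.93 over the 16 ovary arrays, among 1033 probes above the non-specific level on 6 or more of them. It was 0.97 over all 38 arrays, among 1400 probes. The arrays share tissue and stage, so these are descriptions.

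Probe 52-87 read 154 to 295 (FG Mean) on the previtellogenic and 3074 to 35923 (median 7255) on the vitellogenic cephalothorax arrays. It read 192 to 1462 in previtellogenic and 818 to 1371 in vitellogenic wild ovary, and 288 to 485 in vitellogenic captive ovary. Its log2 change with the phase was 5.66 in cephalothorax (adjusted p = 0.00554) and 1.46 in wild ovary (adjusted p = 0.0983), and the captive difference in vitellogenic ovary was -1.93 (adjusted p = 0.0604). Probe 160-198 read 198 to 2530 (median 435) on the vitellogenic cephalothorax arrays, above the level on all 3, and was above it on no other array. Its r was -0.02 over the ovary arrays, all below the level, 0.87 over the 6 cephalothorax arrays and 0.75 over all 38.

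**Figure D5:**
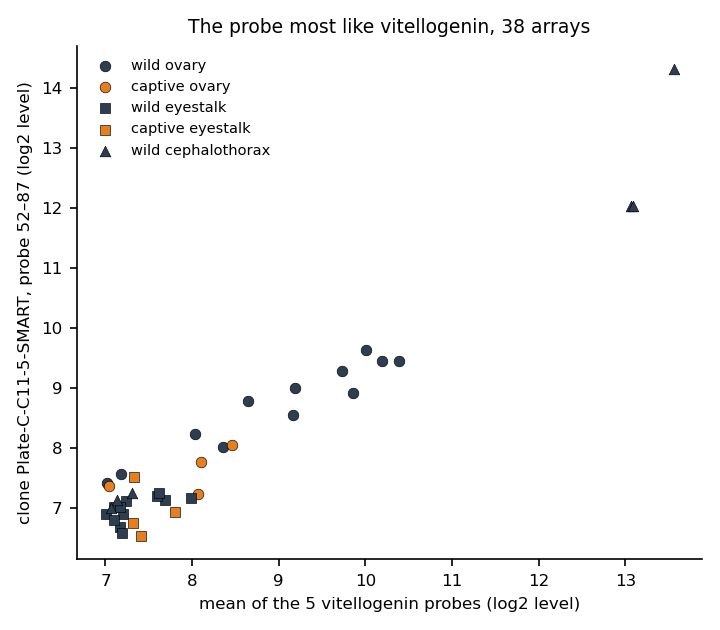
Log2 level of probe 52-87 of clone Plate-C-C11-5-SMART against the mean of the 5 vitellogenin probes on the 38 arrays, by tissue and origin. The 3 vitellogenic cephalothorax arrays lie apart at the upper right, the ovary arrays form a rising line below them (r = 0.93 over 16 ovary arrays), and the eyestalk arrays cluster at the lower left.

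Clone probe 160-198, with r = 0.75 over all arrays, was above the non-specific level on too few arrays to be considered. Among probes above it on 6 or more arrays, the next most similar were further away. Over the ovary arrays they were OV-N-S01-1114-W 513-547 (r = 0.79), OV-N-S01-0743-W 257-291 (0.76), Plate-A-G1-5-SMART 71-105 (0.74) and plateC-A9-5SMART-primer 509-544 (0.71), with the next probe also at 0.71. Over all arrays they were Contig[0361] 268-302 (r = 0.76), plateC-A7-5SMART-primer 33-67 (0.72), HPA-N-S01-0166-LF 17-51 (0.72) and HPA-N-S01-0603-LF 590-624 (0.71). None of these 8 passed with the phase in wild ovary (adjusted p of at least 0.976), beside 0.0% of all probes. In cephalothorax 4 rose, by 2.03 to 2.42, beside 5.49% of all probes that rose. Of these 4, all but plateC-A9-5SMART-primer were chosen over all arrays, cephalothorax included, so their rise is partly set by that choice. Plate-A-G1-5-SMART 71-105 fell by 2.47, opposite to vitellogenin (limma adjusted p = 0.0081), beside 6.12% of all probes that fell.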

How the data were processed

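Total RNA was amplified, labelled with Cy5 and hybridised to single-colour arrays, per the labels' protocols. The deposited scanner files give foreground mean and median intensity per spot, with no background column. The authors' value table matched the foreground mean intensity (0 of 85082 values differed by over 0.01). For each fit, intensities were corrected by normexp (offset 50), log2-transformed and quantile-normalised over its arrays. Limma 3.58.1 in R 4.3.3 was fitted on all 2240 probes with Benjamini-Hochberg adjustment, 1 mean per tissue, origin and phase. Exact permutation tests used scipy. "At least" folds replace dim values by the non-specific level of each array, so they depend on it. Fits were tested on simulated data. Slides were taken from the names of the raw scans, and the number of arrays limits precision. The members, lists and tests were chosen with earlier results of these data known. Named probes were all vitellogenin probes, all receptor probes and the smallest p of each other list in wild ovary. Also named were the 5 probes most correlated with vitellogenin over ovary and all arrays, if above the non-specific level on 6 or more. Listed markers that passed in cephalothorax and the second clone probe were added after their values were seen.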

Additional observations from a re-analysis of the deposited data

Results flagged for a closer look

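Of 20 probe-by-group sets of 6 wild arrays examined in ovary and eyestalk, 4 held an array set apart from the rest by Dixon's ratio of gap to range, where chance gives about 1 in 20. The 5 probes read 1 transcript on the same arrays, so the sets are not independent and the count cannot be set against chance. In vitellogenic wild ovary, the vitellogenic replicate 1 array was low at 7005-7039 (ratio 0.654). In previtellogenic wild eyestalk, the 24 h replicate 2 array was high at 6949-6983 (0.697), 7245-7279 (0.704) and 7519-7553 (0.734). That array's 5-probe mean was 7.99, against 7.00 for its replicate.

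The change with the phase differed between tissues by a test of the difference itself. Against eyestalk it was larger in ovary at 7005-7039 by 2.63 on the log2 scale. Against ovary it was larger in cephalothorax at 6949-6983 (5.08), 7005-7039 (4.99), 7245-7279 (4.73), 7311-7345 (2.26) and 7519-7553 (4.26).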

How the results depend on the processing

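Of 434 counts of vitellogenin probes past the threshold, recomputed under the alternatives and without each of the 38 arrays in turn, 419 stayed within 1.5 times the reported count and 15 did not. The cephalothorax count was 4 or 5 throughout. In wild ovary the count of 0 became 2 with dim probes left out and 1 with a replicate block (7519-7553, adjusted p = 0.0441), and ran from 0 to 4 without 1 array (4 without the 24 h replicate 2 array). The ovary minus eyestalk phase change went from 1 probe to 3 with median scaling and 4 with the replicate block, and ran from 1 to 3 without 1 array (3 without the ovary 24 h replicate 2 array, 2 without either 2 h array or the vitellogenic replicate 1 array of ovary). The captive ovary minus eyestalk count in the vitellogenic phase went from 1 to 2 with median scaling and was 0 or 1 without 1 array (0 without the ovary vitellogenic array), as it was before vitellogenesis (1 without either ovary array) and for captive minus wild eyestalk before vitellogenesis (1 without the wild 24 h replicate 2 array). Ovary minus cephalothorax before vitellogenesis ran from 1 to 3 (1 without the cephalothorax 24 h array). The replicate block changed no other count of vitellogenin probes by over 1.5 times.

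Of 995 probe values 6 changed sign. Ovary minus eyestalk before vitellogenesis at 7519-7553 was 0.2854 with median scaling and ran from -0.3813 to 0.3156 without 1 array. The captive ovary phase change at 7005-7039 ran from -0.1233 to 2.035 and at 7519-7553 from -0.5587 to 1.836, the lowest value of each without the captive preablation array.

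Counts over all probes moved more. Without 1 array, cephalothorax ran from 98 to 373, captive ovary from 36 to 396, captive minus wild ovary phase change from 1 to 256 and captive minus wild eyestalk before vitellogenesis from 1 to 195. The other alternatives gave the following. Cephalothorax 260 ran from 168 to 319 (55 higher and 113 lower with median scaling, against 123 and 137). Captive ovary 212 ran from 0 to 231 (58 and 15, against 62 and 150). Captive minus wild ovary ran from 174 to 532 before vitellogenesis (504 reported, 116 and 135 against 302 and 202) and from 0 to 6 in it (1 reported). Its phase change ran from 0 to 64 (48 reported), wild eyestalk from 12 to 28 (14), captive minus wild eyestalk before vitellogenesis from 1 to 16 (16, 0 and 5 against 10 and 6), and ovary minus eyestalk phase change from 16 to 35 (21).

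Arrays with the same replicate number paired in part. Their deviations correlated above 0.1 in 10 of 15 pairs of stages in ovary (median 0.176, from -0.319 to 0.643). In eyestalk this held in 12 of 15 (median 0.371, from -0.133 to 0.578). Not all pairs of stages did so, and the replicate block is given here only. With 1 to 3 arrays per group in cephalothorax and captive tissue, small differences cannot be seen, and at 4 probes in eyestalk the signal gives only an upper bound.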
